A study of Mus musculus with 2 samples.

Results

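The vessel-wall nuclei of the entorhinal cortex were a rare population in these data, 75 of 12918 nuclei. They were defined here by their RNA. A nucleus was a member when 12 vascular genes together gave at least 5 UMIs (unique molecular identifiers, one per captured RNA molecule) and at least 0.2% of its UMIs. At least 3 of the 12 genes had to be detected, with at most 1 UMI from the leptomeningeal genes Slc6a13 and Ranbp3l and at most 3 from the neuronal gene Slc17a7. Of the 12 genes, 7 were endothelial (Cldn5, Mecom, Ptprb, Adgrl4, Abcb1a, Slco1a4 and Cyyr1) and 5 were mural (Pdgfrb, Rgs5, Abcc9, Vtn and Atp13a5). Their levels selected the nuclei and are given as a description.

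The nuclei came from 2 single-nucleus RNA-seq libraries of frozen entorhinal cortex, each made from tissue of 5 pooled male APP/PS1 mice aged 18 months. APP/PS1 mice carry transgenes for mutant human amyloid precursor protein and presenilin 1, and both groups carried them, so neither library had a wild-type control. One group drank alkaline water with OLE (N-oleoyl-leucine, labelled C18:1-Leu) at 25 mg/kg/day, starting at 15 months and ending at 18 months, and the other group received the vehicle, DMSO. With 1 library per treatment there was no replicate, so no test between treatments was possible. The intervals below are 95% intervals that cover counting error only, not the spread between mice.

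Endothelial cells line the vessel and, in the brain, form the blood-brain barrier through tight junctions, few transport vesicles and dedicated transporters. Mural cells wrap around the endothelium: pericytes sit on capillaries within a shared basement membrane, and smooth muscle cells surround arterioles and larger vessels. In Alzheimer's disease the vessel wall is a route of amyloid clearance and a site of amyloid deposition.

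Vascular nuclei made up a larger share of the OLE library. There were 22 among 6745 vehicle nuclei, 0.326% (exact binomial interval 0.205 to 0.493), and 53 among 6173 OLE nuclei, 0.859% (0.644 to 1.12). The share in OLE was 2.63 times that in vehicle (1.57 to 4.55). The comparable ratio was 1.23 (0.865 to 1.76) for leptomeningeal reference nuclei, 1.21 (0.964 to 1.52) for astrocyte reference nuclei, 0.911 (0.810 to 1.02) for oligodendrocyte reference nuclei and 0.850 (0.724 to 0.998) for microglia reference nuclei, each population chosen by its own markers. Glutamatergic reference nuclei stood at 1.45 (1.33 to 1.57). With 1 pooled library per treatment, a difference in dissection or in the recovery of nuclei and a difference in the number of vascular cells cannot be told apart.

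**Figure D1:**
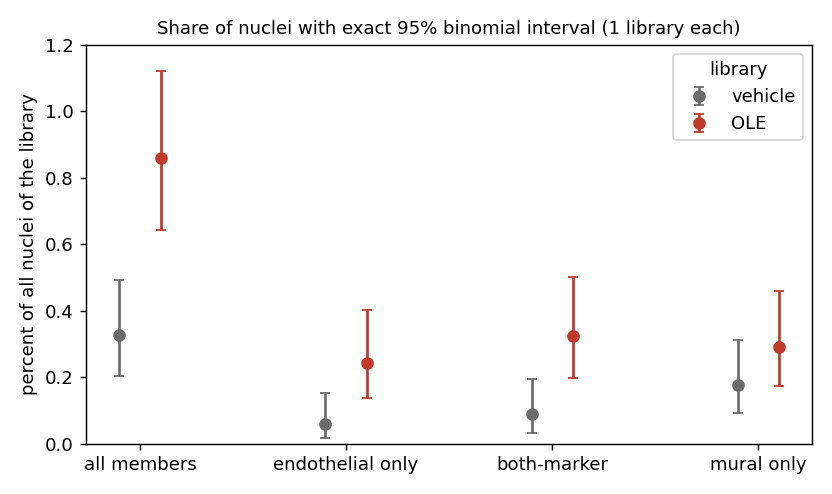
Percent of all nuclei in each library (y axis) that were vascular members, or members of 1 of the 3 kinds described below, with exact 95% binomial intervals (1 library per treatment, vehicle grey and OLE red). All members stood at 0.326% in vehicle and 0.859% in OLE, and the intervals of the 2 libraries overlapped for endothelial only and mural only nuclei.

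At the borders of the rule, 11 vehicle and 19 OLE nuclei failed a single criterion. The lowest vascular share of a member was 0.205% in vehicle and 0.215% in OLE, and the highest share of a nucleus that missed only that criterion was 0.0927% and 0.147%. The criterion of 3 detected genes alone held back 2 vehicle and 4 OLE nuclei. No vehicle member and 3 OLE members had exactly 5 marker UMIs. The limits on leptomeningeal and neuronal genes held back 6 vehicle and 8 OLE nuclei. One held-back vehicle nucleus was rich in vascular RNA, with 421 endothelial and 193 mural UMIs among 30943, but had 4 UMIs of the leptomeningeal genes. With these limits dropped, 28 vehicle and 61 OLE nuclei qualified, a ratio of shares of 2.38.

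Members were of moderate depth. They held 959 to 13332 UMIs in vehicle (median 3561.5) and 1019 to 19173 in OLE (median 4120), against medians of 3995 and 6448.5 in all other nuclei of the 2 libraries. The 4 deepest members supplied 39.6% of all member UMIs in vehicle and 24.0% in OLE. Of 14 cell barcodes found in both libraries, none belonged to a member.

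Genes outside the rule described the members further. Those named here were among the 15 most enriched in the same nuclei, so they are a description and no check of the label. Flt1, the VEGF receptor 1 (mm10 chr5:147561604-147726011, minus strand), was 457-fold higher per UMI in members than in all other nuclei and had 321 UMIs in vehicle members and 632 in OLE members. Adgrf5, an adhesion receptor of endothelium, was 567-fold higher, and Ly6c1, a surface antigen of brain capillaries, 409-fold. On the mural side Kcnj8, the pore-forming partner of Abcc9 in a potassium channel, was 405-fold higher, Ebf1, a pericyte transcription factor, 257-fold, and Gjc1, a gap junction protein, 235-fold. Of 1559 genes with at least 50 UMIs in members, 646 were at least 2-fold higher in members than elsewhere (41.4%), so a 2-fold excess alone marked no gene out. The other genes among the 15 most enriched were 4930578C19Rik, Tbx3os1, Slc38a11, Zfp366, Ly6a, Sox18, Kdr, Itga1 and Eng, at 217-fold to 919-fold. Tbx3os1 is antisense to another gene, and its reads may not be its own. All 23 further endothelial genes and all 14 further pericyte genes on the lists had UMIs in the members of both libraries.

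Smooth muscle was barely represented. No gene of a 10-gene smooth muscle list reached 50 UMIs. Acta2, smooth muscle actin, had 13 UMIs, all in 1 OLE nucleus of the endothelial only kind defined below. That nucleus held most of the 43 smooth muscle UMIs of OLE endothelial only nuclei, where the median was 0. From the genes of the rule it had 16 endothelial UMIs and 1 mural UMI, among 5092 UMIs. The name endothelial only thus refers to the genes of the rule and does not exclude smooth muscle RNA. Myh11, smooth muscle myosin, had 6 UMIs in vehicle and 13 in OLE, and Cnn1, calponin, had none. The mural side of the set was thus carried by pericyte genes. The mural genes of the rule are pericyte genes, so smooth muscle nuclei without them would not have been selected.

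Splitting members by the higher of the 2 sums gave 9 endothelial-leading and 13 mural-leading nuclei in vehicle, and 28 endothelial-leading, 23 mural-leading and 2 tied nuclei in OLE. The share of endothelial-leading nuclei in OLE was 3.40 times that in vehicle (1.56 to 8.19), and that of mural-leading nuclei 1.93 times (0.939 to 4.15). The 2 intervals overlapped.

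This split hid a further kind of nucleus. The plot of marker UMIs showed 26 nuclei with at least 3 UMIs from the endothelial genes and at least 3 from the mural genes, called both-marker here. The limit of 3 was chosen after the values were seen. They were 6 of the vehicle and 20 of the OLE members. A further 19 nuclei were endothelial only (4 and 15) and 30 were mural only (12 and 18). Of the mural only nuclei, 26 had no endothelial UMI at all, and 11 of the endothelial only nuclei had no mural UMI. By lead, 5 of 9 vehicle and 13 of 28 OLE endothelial-leading nuclei were both-marker, against 1 of 13 and 5 of 23 mural-leading nuclei.

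**Figure D2:**
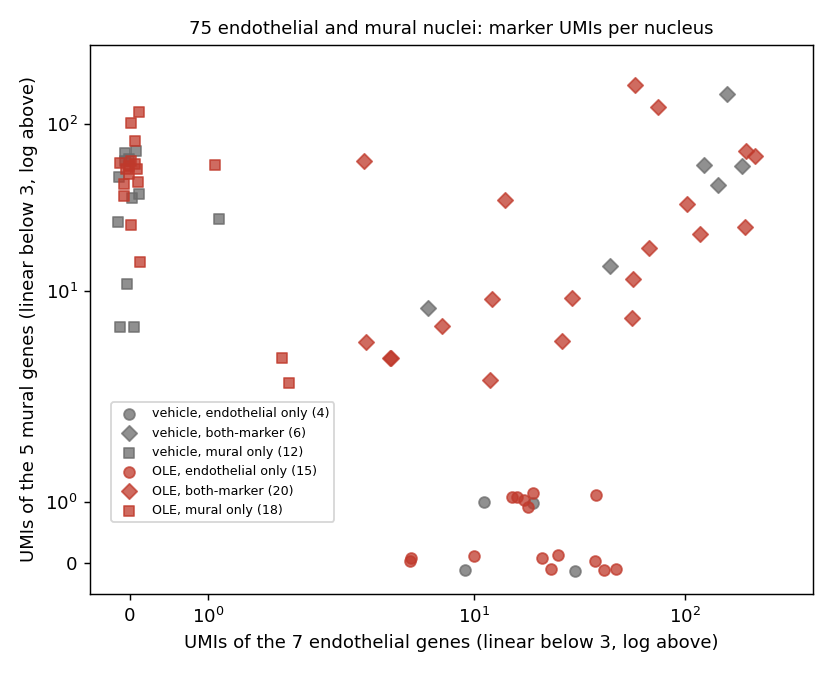
Each point is 1 of the 75 nuclei, placed by its UMIs from the 7 endothelial genes (x axis) and the 5 mural genes (y axis), both linear below 3 and logarithmic above and shifted by up to 0.15 UMI so that points can be seen. The 30 mural only nuclei lie along the left edge, the 19 endothelial only nuclei along the bottom and the 26 both-marker nuclei between them.

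Both-marker nuclei carried RNA of both sides, in unequal measure. The 7 endothelial genes of the rule summed to 12717 UMIs per 1,000,000 in vehicle and 10451 in OLE both-marker nuclei, against 7666 and 6079 in endothelial only nuclei. The 5 mural genes summed to 6359 and 5784, against 9397 and 11656 in mural only nuclei. These genes set the kinds, so the values describe them. Cldn5, the main claudin of the tight junction (mm10 chr16:18776847-18778262, plus strand), gave 915.6 UMIs per 1,000,000 in endothelial only nuclei, 2965 in both-marker nuclei and 15.7 in mural only nuclei. Slco1a4, an organic anion transporter, gave 1521, 2332 and 0 per 1,000,000 in the same order. Rgs5, a pericyte regulator of G protein signalling (mm10 chr1:169655501-169695813, plus strand), gave 46.6, 2713 and 1068. So for Rgs5 the both-marker nuclei stood above the mural only nuclei, and for Cldn5 above the endothelial only nuclei.

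Other mural genes had the opposite order. Atp13a5, a pericyte P-type ATPase, gave 15.5 UMIs per 1,000,000 in endothelial only, 644.5 in both-marker and 4082 in mural only nuclei. Notch3, the Notch receptor of mural cells, gave 0, 240.2 and 1060. Abcc9, the sulfonylurea receptor subunit of the Kcnj8 channel, gave 15.5, 445.3 and 1358, and Pdgfrb, the receptor for endothelial PDGF-B, gave 0, 328.1 and 942.1. Vtn, the matrix protein vitronectin, was at 46.6, 1828 and 3344. Both-marker nuclei thus lay below the mural only nuclei for these 5 genes.

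**Figure D3:**
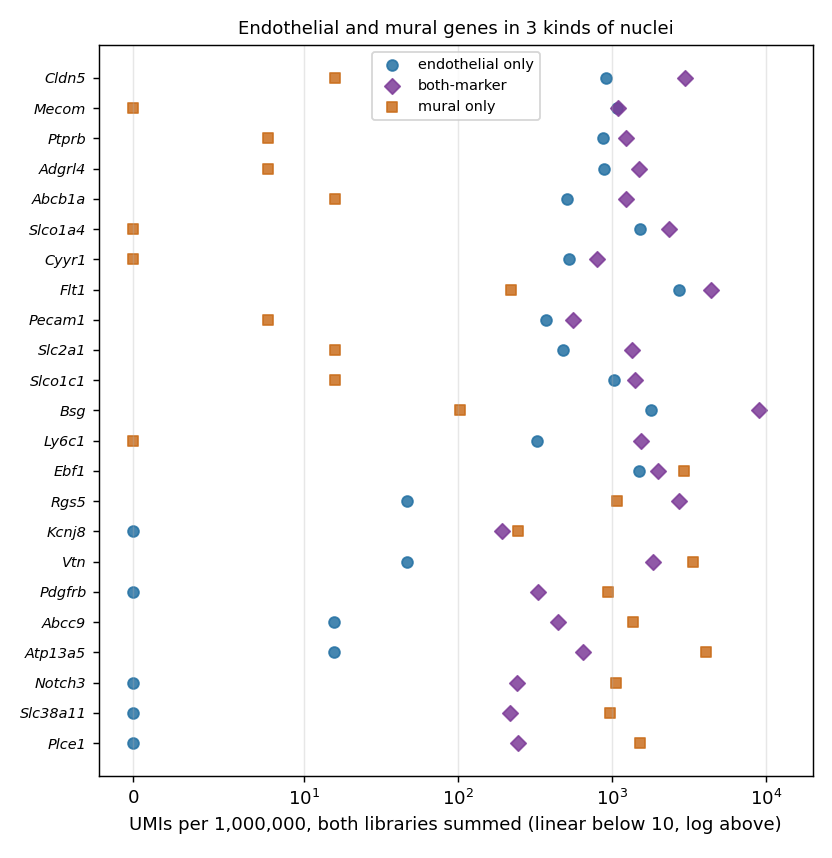
UMIs per 1,000,000 (x axis, linear below 10 and logarithmic above) of 23 endothelial and mural genes in endothelial only, both-marker and mural only nuclei, both libraries summed. Both-marker nuclei carried the genes of both sides, with Bsg at 9011 per 1,000,000.

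Both-marker nuclei also differed in the kinds of RNA they held. Ribosomal protein genes took a median of 2.13% of their UMIs, against 0.473% in endothelial only nuclei, 0.206% in mural only nuclei and 0.161% in all other nuclei. Mitochondrial genes took 3.92%, 1.95%, 0.923% and 0.787%. The median depth was 5581.5 UMIs in both-marker, 2760 in endothelial only and 3433 in mural only nuclei. The pattern held within each library, with median ribosomal shares of 1.70% and 2.37% in vehicle and OLE both-marker nuclei and 0.156% and 0.271% in mural only nuclei. None of the 26 was among the 5% of nuclei with the highest doublet scores, whereas 5 mural only nuclei were. The score compares nuclei with simulated random pairs. Vascular nuclei were rare, so few such pairs join an endothelial and a mural nucleus, and the score cannot tell these apart. Whether both-marker nuclei held RNA of joined cells was not tested.

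**Figure D4:**
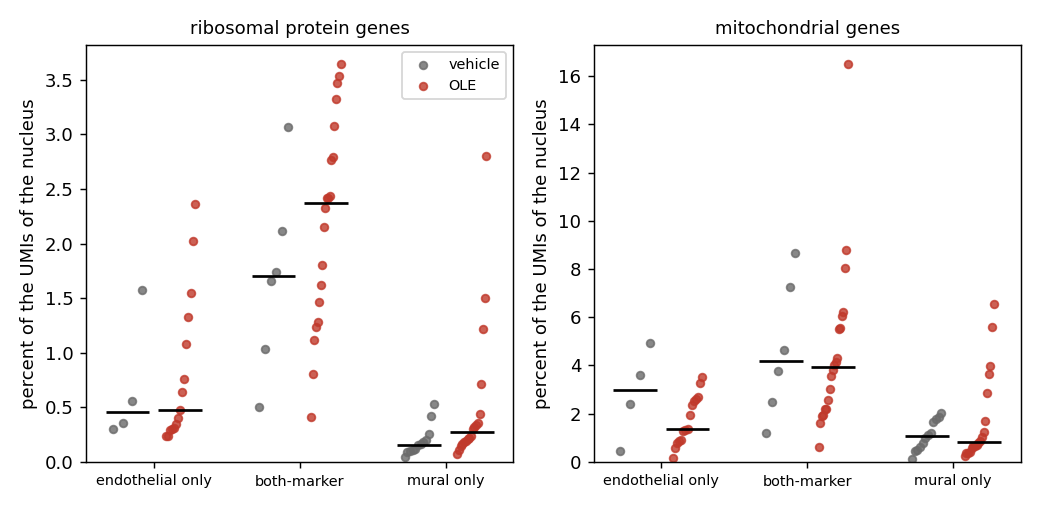
Percent of the UMIs of each nucleus from ribosomal protein genes (left) and mitochondrial genes (right), by kind of nucleus and library, with the median as a bar. Ribosomal shares reached 3.64% in both-marker nuclei, and the highest mitochondrial share was 16.5%.

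Several endothelial transcripts were most abundant in both-marker nuclei. Bsg, basigin or CD147, a partner of monocarboxylate transporters (mm10 chr10:79704491-79711969, plus strand), gave 9011 UMIs per 1,000,000 in both-marker, 1785 in endothelial only and 102.1 in mural only nuclei. Ly6c1 gave 1535, 325.9 and 0, and Ly6a, a related surface antigen, 1295, 232.8 and 7.85. Itm2a, a membrane protein of brain endothelium, gave 1020, 263.8 and 0. By contrast Mecom, an endothelial transcription factor, gave 1090 and 1071 per 1,000,000 in both-marker and endothelial only nuclei, and Fli1, an ETS factor, 697.2 and 698.3. The part of the higher ribosomal and mitochondrial shares in these levels was not tested.

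The endothelial only and mural only nuclei also differed in genes the rule did not use. Among 623 genes with at least 50 UMIs in these nuclei, 72 were at least 2-fold higher on the endothelial side (11.6%) and 129 on the mural side (20.7%). These counts include genes of the rule, which set the kinds. Outside the rule, the 5 genes with the largest excess on the endothelial side included Slco1c1, the thyroxine transporter, at 1024 against 15.7 UMIs per 1,000,000. They also included Slc6a6, the taurine transporter, at 1257 against 70.7, and Lef1, a nuclear effector of Wnt signalling, at 744.9 against 55.0. On the mural side Plce1, a phospholipase C, stood at 1515 against 0, Slc38a11, an amino acid carrier, at 965.7 against 0, and Il34, a ligand of the CSF1 receptor, at 478.9 against 0. These are descriptions, since the kinds were set by RNA of the same nuclei.

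Levels in OLE were next set against vehicle, gene by gene, as the log2 ratio of UMIs per 1,000,000 summed over the members of each library. A gene was called at a ratio of at least 2-fold. Of the 1559 genes, 72 were called higher in OLE (4.62%) and 49 lower (3.14%), and the median log2 ratio was -0.01. In endothelial-leading nuclei, 74 of 690 genes were called higher (10.7%) and 37 lower (5.36%). In mural-leading nuclei, 39 of 456 genes were called higher (8.55%) and 9 lower (1.97%). With TMM scaling the calls over all members were 91 higher and 37 lower, so the share of calls that were higher moved from 59.5% to 71.1%. The balance depended on the minimum of 50 UMIs as well: with 1 UMI in each library as the only minimum, 1458 genes were called higher and 1878 lower, so that 43.7% of calls were higher. OLE members held 253226 UMIs and vehicle members 109268, and a minimum on the sum of both is more easily met by a gene that is higher in OLE.

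Over all members, none of the 12 vascular genes of the rule was called. Cldn5 had 163 UMIs in vehicle members and 404 in OLE members, a log2 ratio of 0.10 (-0.17 to 0.37). Slco1a4 was at 0.15 and Adgrl4, an adhesion receptor of sprouting endothelium, at 0.22. Abcb1a, the efflux pump P-glycoprotein, was at -0.39 (-0.78 to 0.00), and Mecom, at 106 and 149 UMIs, at -0.72 (-1.09 to -0.35). Of the mural genes, Vtn was at 0.14, Abcc9 at -0.04, Rgs5 at -0.23, Atp13a5 at -0.39 and Pdgfrb at -0.65 (-1.10 to -0.19). The remaining members of the rule, Ptprb, the endothelial tyrosine phosphatase, and Cyyr1, were at -0.18 and -0.30. These genes selected the nuclei, so their ratios describe the members only. Split by class, 2 of them were called. Vtn was past 2-fold in both classes and in opposite directions. It stood at -2.63 in endothelial-leading nuclei (97 and 39 UMIs) and 1.07 in mural-leading nuclei (112 and 490 UMIs). Mecom was at -1.06 in endothelial-leading nuclei. These genes also set the class, so their ratios by class are a description. Scaled as above, Vtn in both-marker nuclei stood at 1875 (1520 to 2287) in vehicle and 1808 (1574 to 2066) in OLE. Of its 97 vehicle UMIs there, 1 nucleus held 64. In mural only nuclei Vtn stood at 2287 (1882 to 2755) and 3995 (3566 to 4462). The part of the sorting of both-marker nuclei in the class ratios was not tested.

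Blood-brain barrier transport showed no call. All 18 genes of the list had UMIs in both libraries, 13 reached 50 UMIs, and none of them was called in either direction (median log2 ratio 0.02). Over all compared genes 4.62% were called higher and 3.14% lower, so a short list without a call lies near that share. This applies to each list below that had no call over all members. Slc2a1, the glucose transporter GLUT1, had 78 UMIs in vehicle and 183 in OLE, a log2 ratio of 0.02 (-0.37 to 0.42). Slc7a5, the large neutral amino acid transporter, was at 0.17, Abcg2, the second main efflux pump, at -0.03 and Slco1c1 at 0.47 (0.09 to 0.87). Mfsd2a, the lysolipid transporter that restrains transcytosis, was at 0.86 on 10 and 42 UMIs, with an interval from -0.16 to 2.02 and a ratio of 0.83 in all other nuclei. Leaving out single nuclei moved the Mfsd2a ratio between 0.55 and 2.99.

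Of 14 junction genes 8 reached 50 UMIs and none was called over all members. Tjp1, the scaffold ZO-1, had 115 and 241 UMIs (log2 ratio -0.15, -0.47 to 0.19), and Ocln, occludin, 15 and 39 (0.17, -0.73 to 1.13). Cdh5, VE-cadherin of the adherens junction, had 27 and 35 UMIs and a ratio of -0.84 (-1.60 to -0.06). In endothelial-leading nuclei Cdh5 was called lower, with 26 and 31 UMIs and a ratio of -1.06 (-1.86 to -0.25), the single call among 5 compared junction genes. The summed list stood there at -0.27 (-0.50 to -0.03). Endothelial genes at large were also lower in that class. The 7 endothelial genes of the rule summed to -0.33 (-0.46 to -0.20) and the 23 further endothelial genes to -0.29 (-0.40 to -0.18). Over all genes compared in that class 5.36% were called lower. The 4 deepest endothelial-leading nuclei held 74.4% of the UMIs of the class in vehicle and 34.4% in OLE.

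Genes of amyloid exchange and transcytosis gave no call over all members among 7 compared of 17 listed (median log2 ratio 0.27). Bsg had 365 UMIs in vehicle and 1301 in OLE, a ratio of 0.62 (0.45 to 0.79), and the same gene stood at 0.57 in all other nuclei. Leaving out single nuclei moved Bsg between 0.31 and 0.99. In mural-leading nuclei both compared genes of the list were called higher, Bsg with 4 and 183 UMIs (4.45, 3.07 to 6.34) and Apoe with 15 and 71 (1.18, 0.36 to 2.09), while in endothelial-leading nuclei Bsg stood at 0.31 (0.14 to 0.49) and none of 5 genes was called. Among all genes compared in mural-leading nuclei 8.55% were called higher. Both-marker nuclei were 1 of 13 mural-leading nuclei in vehicle and 5 of 23 in OLE. In mural only nuclei Bsg had 0 UMIs in vehicle and 13 in OLE. Most of its 183 mural-leading UMIs in OLE thus came from both-marker nuclei. The part of both-marker nuclei in the Apoe ratio was not tested. Apoe, the lipid carrier apolipoprotein E, had 50 and 222 UMIs and a ratio of 0.94 (0.49 to 1.41), against 0.84 in all other nuclei. Picalm, an adaptor of clathrin-coated vesicles, had 39 and 47 UMIs and a ratio of -0.94 (-1.59 to -0.29), against -0.07 in all other nuclei. The shifts of Bsg and Apoe were thus nearly as large outside the vessel wall, and that of Picalm was not. Lrp1, a clearance receptor for amyloid, had 11 and 27 UMIs, too few to compare, and Ager, the receptor RAGE, had none.

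Receptors of angiogenic signalling were mostly below 0. Of 27 listed genes 11 were compared over all members, 2 of them were above 0, none was called and the median log2 ratio was -0.32, against -0.01 over all genes. Kdr, VEGF receptor 2, had 40 and 51 UMIs (-0.86, -1.49 to -0.23), Eng, endoglin, 66 and 89 (-0.78, -1.26 to -0.30) and Flt1 was at -0.24 (-0.43 to -0.04). Notch1 was at -0.83 (-1.60 to -0.03), Notch3 at -0.41 (-0.86 to 0.06) and Tek, the angiopoietin receptor Tie2, at -0.32 (-0.84 to 0.22). Leaving out single nuclei moved Flt1 between -0.40 and 0.25, so its sign depended on 1 nucleus. By class, Flt1 had 310 and 541 UMIs in endothelial-leading nuclei (-0.51, -0.71 to -0.30) and 11 and 91 in mural-leading nuclei (1.99, 1.08 to 3.04). In mural only nuclei Flt1 had 7 and 21 UMIs (0.88, -0.40 to 2.36), so most of the 91 came from both-marker nuclei. Kdr was called lower in endothelial-leading nuclei (-1.28, -1.94 to -0.61), where 0 of 9 compared genes of the list were above 0. In the same nuclei 0 of the 7 endothelial genes of the rule and 6 of 15 compared further endothelial genes were above 0. Among 4 compared genes of the Wnt pathway that maintains the barrier, Lef1 was at -0.85 (-1.26 to -0.44, and -0.23 without 1 nucleus) and Ctnnb1, β-catenin, at 0.65 (0.12 to 1.21).

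**Figure D5:**
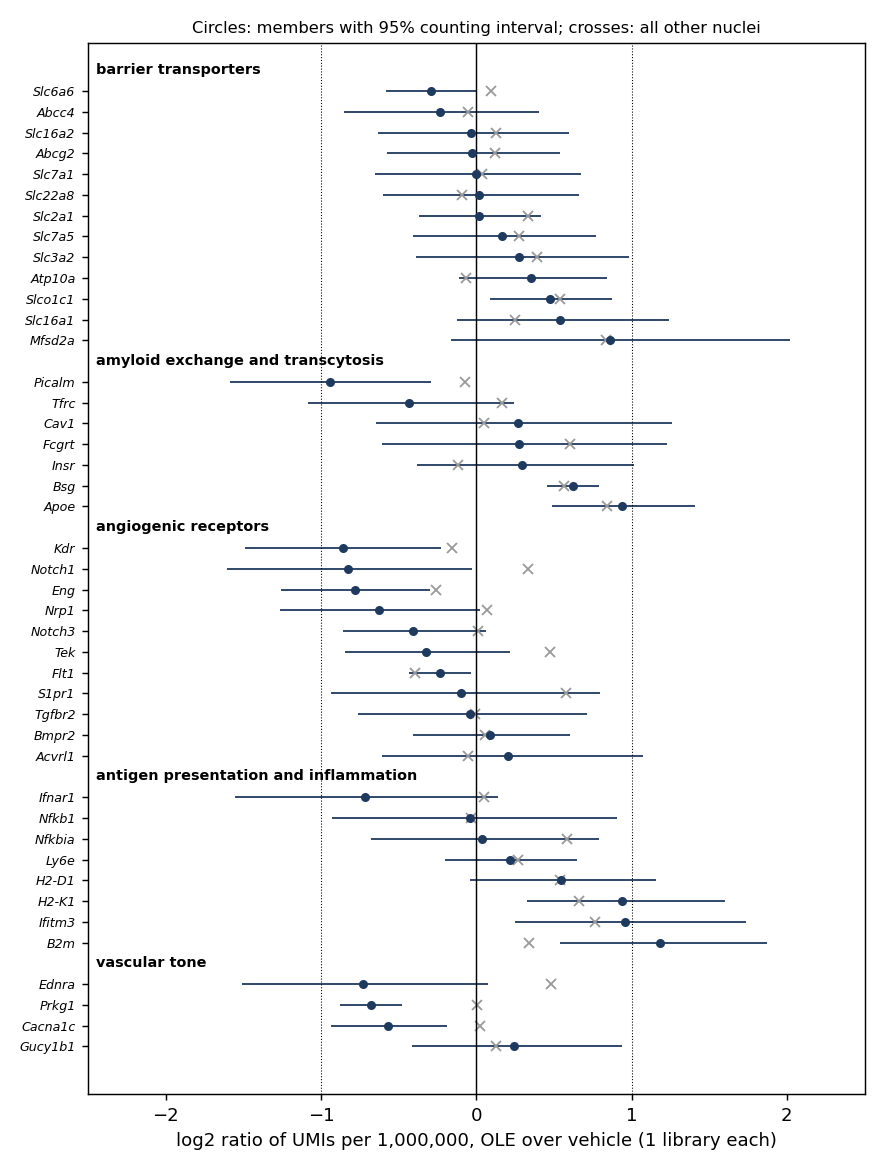
Log2 ratio of UMIs per 1,000,000, OLE over vehicle (x axis), for the compared genes of 5 lists: circles with 95% counting intervals are vascular members, crosses are all other nuclei, and dotted lines mark 2-fold. B2m, at 1.18, was the gene past the 2-fold line here.

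Genes of antigen presentation and inflammation leaned the other way. Of 20 listed, 8 were compared, 6 were above 0 and 1 was called higher, with a median log2 ratio of 0.38. B2m, the light chain of MHC class I (mm10 chr2:122147686-122153083, plus strand), had 24 UMIs in vehicle and 126 in OLE, a ratio of 1.18 (0.54 to 1.87). H2-K1, an MHC class I heavy chain, had 27 and 120 (0.94, 0.33 to 1.60), and Ifitm3, an interferon-induced membrane protein, 20 and 90 (0.96, 0.25 to 1.74). Leaving out single nuclei moved B2m between 0.89 and 1.49, so its call depended on 1 nucleus. In all other nuclei the ratios of B2m, H2-K1 and Ifitm3 were 0.34, 0.66 and 0.77. Most B2m came from both-marker nuclei, 19 UMIs in vehicle and 101 in OLE, at 367.2 (221.1 to 573.5) and 849.2 (691.7 to 1032) per 1,000,000. The adhesion molecules Icam1 and Vcam1 had 4 and 7 UMIs in all, and Selp, P-selectin, none. H2-K1 shares near-identical stretches with other class I genes, so its count is uncertain.

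Vessel segments could be told apart only in part. All 7 capillary genes were compared and 1 was called higher. Rgcc, a cell cycle regulator of capillary endothelium, had 8 UMIs in vehicle and 58 in OLE, a log2 ratio of 1.65 (0.57 to 2.92), against 0.12 in all other nuclei. Car4, carbonic anhydrase 4, was at -0.32 and Cxcl12 at -0.05. Of 13 arterial genes only Mgp reached 50 UMIs (0.91, 0.06 to 1.86), and leaving out single nuclei moved it between -0.53 and 1.23. In endothelial-leading nuclei Mgp was called higher, on 8 and 46 UMIs (1.21, 0.12 to 2.51). Of the 46 OLE UMIs, 39 came from 1 nucleus, so this call rested on that nucleus. Of 9 venous genes 2 were compared, and neither was called.

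Pericyte genes gave a single call. Of 14 further pericyte genes 8 were compared, none was called higher and 1 was called lower, with a median log2 ratio of -0.29. Slc38a11 (mm10 chr2:65316430-65364034, minus strand) had 86 UMIs in vehicle and 74 in OLE, a ratio of -1.43 (-1.90 to -0.96). In mural only nuclei it stood at 1319 UMIs per 1,000,000 (1016 to 1684) in vehicle and 748.3 (569.6 to 965.2) in OLE, and in both-marker nuclei at 425.2 (266.5 to 643.8) and 126.1 (70.6 to 208.0). The intervals of the 2 libraries did not overlap in either kind. Ebf1 had 305 and 504 UMIs (-0.49, -0.70 to -0.28), Slc6a20a, a proline carrier, 69 and 90 (-0.83, -1.30 to -0.36), and Kcnj8 16 and 48 (0.37, -0.47 to 1.29). Of the Ebf1 UMIs, 135 in vehicle and 226 in OLE came from endothelial-leading nuclei.

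Genes of vascular tone were mostly below 0. Of 14 listed 4 were compared and none was called over all members. Prkg1, the cGMP-dependent kinase that relaxes contractile cells, had 352 and 509 UMIs (-0.68, -0.88 to -0.48), Cacna1c, the L-type calcium channel, 101 and 158 (-0.57, -0.94 to -0.19), and Ednra, the endothelin A receptor, 25 and 35 (-0.73, -1.51 to 0.07). Prkg1 and Cacna1c were at 0.00 and 0.02 in all other nuclei. Prkg1 was called lower in endothelial-leading nuclei, with 104 and 115 UMIs (-1.17, -1.56 to -0.77). Mural only nuclei held 44.4% of member UMIs in vehicle and 31.1% in OLE, so the mix of nuclei moved with these ratios. The part of the mix in these ratios was not tested. In mural-leading nuclei alone the 4 genes of tone had a median of -0.37 with no call, and the summed list stood at -0.30 (-0.48 to -0.12). There 7 pericyte genes had a median of 0.05, with 2 called higher and none lower. The summed pericyte list stood at -0.11 (-0.28 to 0.07). Over all genes compared in mural-leading nuclei 8.55% were called higher and 1.97% lower.

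Basement membrane genes gave no call over all members among 10 compared of 15 (median 0.20), and the classes differed in direction. In mural-leading nuclei 2 of 4 compared genes were called higher, Lamc1 (1.04, 0.26 to 1.90) and Itgb1, an integrin chain (1.19, 0.14 to 2.42), and the summed list stood at 0.68 (0.38 to 0.98). Over all genes compared in that class 8.55% were called higher. Of the mural-leading nuclei, 1 of 13 in vehicle and 5 of 23 in OLE were both-marker, and their part in these ratios was not tested. In endothelial-leading nuclei none of 5 was called and the sum stood at -0.26 (-0.49 to -0.02). The difference between the classes was not tested. Over all members Col4a1, a collagen IV chain, was at 0.13 (-0.52 to 0.82) and Lamc1, a laminin chain, at 0.29 (-0.33 to 0.94). Fn1, fibronectin, had 25 and 106 UMIs and a ratio of 0.87 (0.23 to 1.56), against 0.12 in all other nuclei. For protein folding in the endoplasmic reticulum 5 of 15 genes were compared, all 5 were above 0 and none was called (median 0.33). Hspa5, the chaperone BiP, was at 0.33 (-0.61 to 1.37) and Calr, calreticulin, at 0.81 (-0.02 to 1.73), against 0.72 and 0.68 in all other nuclei. Pm20d1, which encodes an enzyme that makes N-acyl amino acids, had no UMI in members. Faah, which degrades fatty acid amides, had 1 UMI in vehicle and 14 in OLE.

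The largest ratios of all belonged to hemoglobin, a product of red blood cells. The 4 hemoglobin genes Hba-a1, Hba-a2, Hbb-bs and Hbb-bt had 6 UMIs in vehicle members and 1201 in OLE members, an 86.4-fold ratio (39.6 to 236). A single OLE nucleus with 74 endothelial and 127 mural UMIs held 687 of them, 9.55% of its RNA, and the next nuclei held 307 and 96. These 3 held 90.8% of the hemoglobin UMIs in OLE, and without them the OLE members stood at 491 UMIs per 1,000,000. Vehicle members stood at 54.9 with all nuclei and at 10.1 without their own highest 3. Both-marker nuclei held 1162 of the 1201. In all other nuclei hemoglobin was lower in OLE, at 31.4 against 52.4 UMIs per 1,000,000. Alas2, the first enzyme of heme synthesis in red cells, had 1 UMI. Reads can be split between the near-identical copies, so only the sum is given.

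The remaining genes of the extremes were a mixed set. Among the 10 highest, Pglyrp1, a peptidoglycan recognition protein, rested on both-marker nuclei. It had 7 UMIs in vehicle and 83 in OLE members, a log2 ratio of 2.36 (1.25 to 3.71), of which 7 and 77 came from both-marker nuclei. Chd4, a chromatin remodeller, had 6 and 55 UMIs (1.98, 0.77 to 3.49), spread over 28 OLE nuclei with at most 5 UMIs each. Sorcs3, a neuronal sorting receptor, had 63 UMIs in OLE, 31 of them in 1 nucleus. Nrgn and Camk2a, both postsynaptic proteins of excitatory neurons, were at 2.47 and 1.96.

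Neuronal RNA moved with these genes. Of 12 neuronal markers 9 were compared, all 9 were above 0 and 4 were called higher: Nrgn, Camk2a, Csmd1 (1.21) and Snap25 (31 and 165 UMIs). The sum of the list was 3780 UMIs per 1,000,000 in vehicle members and 6844 in OLE members, against 23796 and 22877 in all other nuclei, and all 12 had UMIs in both libraries. Leaving out 1 nucleus took Csmd1 to 0.68, below the 2-fold line. By nucleus the sum ran from 1259 to 23983 in vehicle (median 4411) and from 695 to 23627 in OLE (median 6159). In non-neuronal reference nuclei the summed list was lower in OLE. It stood at 4846 in vehicle and 2793 in OLE leptomeningeal nuclei and at 6421 and 4900 in oligodendrocyte nuclei. Microglia stood at 7664 and 6214, astrocytes at 6455 and 6016, and oligodendrocyte precursors at 13441 and 11964. The summed log2 ratio of 0.86 (0.70 to 1.01) fell to 0.41 without the deepest member of each library. The part of neuronal RNA in the OLE ratios was not tested.

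Markers of other cell types were also present. Astrocyte markers were at 3414 UMIs per 1,000,000 in vehicle and 3203 in OLE members, above the 1122 and 1284 of all other nuclei. Leptomeningeal reference nuclei stood at 2714 and 3572 and oligodendrocyte precursors at 5985 and 6046.5. Microglia reference nuclei were lower, at 836 and 832, as were oligodendrocytes, at 633 and 595. In members the oligodendrocyte list stood at 979.2 and 1366, and 1 of its 4 compared genes, St18, was called higher. All 9 microglial markers had UMIs in both libraries, at 512.5 UMIs per 1,000,000 in vehicle and 268.5 in OLE members. The 5 perivascular macrophage markers had 0 UMIs in vehicle (exact upper limit 33.8 per 1,000,000) and 3 UMIs in OLE. The leptomeningeal list stood at 933.5 in vehicle and 213.3 in OLE, a log2 ratio of -2.13 (-2.63 to -1.64), and its highest vehicle nucleus at 7998. Its gene Cped1 was among the 10 lowest genes, with 49 UMIs in vehicle, 38 in OLE and a ratio of -1.58 on the log2 scale (-2.23 to -0.94).

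The other genes of the lowest 10 were Lin7a, St3gal4, Sema5a, Ecm2, Slc38a11, Zfyve9, Ctnna3, Gpc3 and Lrmda. Lin7a, a scaffold protein, led them with 64 UMIs in vehicle and 46 in OLE, a log2 ratio of -1.69 (-2.27 to -1.12), and had UMIs in 15 of 22 vehicle and 18 of 53 OLE nuclei. Leaving out single nuclei moved it between -1.94 and -1.42. Ctnna3, an α-catenin, had UMIs of 31 in vehicle and 28 in OLE, and 28 of the vehicle UMIs came from 2 nuclei. Without 1 of these its ratio of -1.36 reached -0.44.

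Detection in single nuclei was set side by side at equal depth with Flt1, an endothelial gene that the rule did not use. With each nucleus thinned to 900 UMIs, Flt1 was found in 2 of 4 vehicle and 11 of 15 OLE endothelial only nuclei (50% and 73.3%). It was found in 0 of 12 vehicle mural only nuclei (upper limit 26.5%) and in 3 of 18 OLE mural only nuclei (16.7%, 3.58 to 41.4). In oligodendrocyte reference nuclei, which should lack the gene, the thinned count was 0 of 642 in vehicle and 0 of 535 in OLE, whereas microglia reference nuclei gave 5.90% and 6.20%. Before thinning, Flt1 was found in 2 of 4 and 15 of 15 endothelial only nuclei (median depth 2022.5 and 2881 UMIs) and in 5 of 12 and 8 of 18 mural only nuclei (median depth 3561.5 and 3431 UMIs). The low share in mural only nuclei was thus above that of oligodendrocytes before thinning, at 41.7% and 44.4% against 0.779% and 0.748%.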

How the data were processed

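Nuclei had been released from frozen tissue and made into 10x Genomics 3′ libraries. The authors aligned reads with Cell Ranger (3.0.1 per the submitters' processing notes, and 3.0.2 in the matrix header) to the mm10 pre-mRNA reference, and processed nuclei in Seurat 4.0.4. They deposited a whole-number UMI count per gene and nucleus, without normalization, for 31053 genes. Per the study's methods doublets were removed in Seurat; the criterion is not given in the sources used here.

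Counts were summed over members per library and scaled to 1,000,000 UMIs. Ratios carry exact conditional binomial intervals, shares exact Clopper-Pearson intervals and levels exact Poisson intervals, all at 95% and for counting error only. UMIs of 3′ ends do not compare levels between genes. The study tested nuclei as replicates by logistic regression, which was not done here because nuclei of 1 library are not replicates. Endothelial-leading meant that the sum of the 7 endothelial genes exceeded that of the 5 mural genes. Named genes were those of the rule, of 29 gene lists, the 10 highest and 10 lowest ratios, and the 15 genes most enriched in members. Plce1, Il34, Alas2 and Smg6 fall outside these and were chosen after their values were seen, as was the limit that defines both-marker nuclei. The members and lists were chosen with earlier results of these data known.

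Reference populations had at least 5 UMIs and 0.2% of their UMIs from at least 3 of their own markers, or at least 4 UMIs of Slc17a7 for glutamatergic nuclei. Doublet scores came from Scrublet in scanpy 1.11.5 at an expected 5%. Its automatic threshold called 8 vehicle and 7 OLE nuclei, none a member, so the top 5% of scores was used as an alternative. Code ran in Python 3.11.15 with scipy 1.17.1, and TMM factors came from edgeR 4.0.16. Ratios and the member rule were tested on simulated data. Gene positions are from GENCODE for mm10, to which 99.6% of gene identifiers matched. Some genes that the naming rule selects are not reported here.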

Additional observations from a re-analysis of the deposited data

Results flagged for a closer look

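Of 307 genes with at least 50 UMIs in both endothelial-leading and mural-leading nuclei, 3 outside the rule were at least 2-fold higher in OLE in one class and at least 2-fold lower in the other, with both counting intervals clear of 0. The difference between the classes was not tested. Gpc5, a glypican abundant in astrocytes, had a log2 ratio of 3.07 in endothelial-leading and -1.95 in mural-leading nuclei, and 1 nucleus held 57 of the 65 mural-leading UMIs in vehicle. Slc1a2, the astrocyte glutamate transporter, was at 1.03 and -1.20, and 1 nucleus held 44 of its 56 mural-leading UMIs in vehicle. Smg6, a nuclease of RNA decay, was at -1.55 and 1.29, with 33 and 28 UMIs in endothelial-leading and 9 and 46 in mural-leading nuclei of vehicle and OLE, and at most 10 UMIs in any nucleus.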

How the results depend on the processing

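The share of vascular nuclei stayed higher in OLE under all 8 alternatives, at 2.25 to 2.72 times that in vehicle. Over 145 named genes and the alternative scalings, weightings and member sets, 1358 log2 ratios lay within the original counting interval and 206 outside it. Called ratios changed sign in 2 cases, Ctnna3 at 2.15 in endothelial-leading nuclei alone and St18, an oligodendrocyte gene, at -0.35 in mural-leading nuclei alone. Counts of genes called higher and lower were 422 and 248 at a minimum of 20 UMIs, 1458 and 1878 with 1 UMI in each library as the only minimum, 26 and 12 at a minimum of 100 UMIs, and 39 and 9 in mural-leading nuclei alone, settings that compare more or fewer genes. With each nucleus weighted equally 115 genes were called higher, and the cause was not tested. Without both-marker nuclei 198 genes, of fewer compared, were at least 2-fold higher in members than elsewhere. The summed neuronal ratio was 0.48 without the highest doublet scores, 0.60 without members over 2% neuronal UMIs and 0.41 without the deepest members. The settings that drop both-marker nuclei, single nuclei, 1 class or the limits on leptomeningeal and neuronal genes, those that drop members by mitochondrial share from the gene ratios, and those for the neuronal sum were chosen after seeing the data. TMM moved all log2 ratios by 0.08. No paired analysis was possible because the groups share only 1 replicate number. Depth limits the comparison to genes with at least 50 UMIs in 75 nuclei, and the spread between mice was not measured.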
